A study of Homo sapiens with 7 samples.

Results

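The 4 HOX gene clusters were described by their replication timing in 2 human cell lines. HOX genes encode homeodomain transcription factors that set positional identity along the body axis. They lie in 4 compact clusters (HOXA on chromosome 7, HOXB on 17, HOXC on 12 and HOXD on 2), in which gene order follows the order of expression along the axis, and numbers shared between clusters mark paralogs. In cells that do not use them the clusters are classical targets of Polycomb repression, and active and open chromatin is in general copied earlier in S phase than repressed chromatin. Probes were taken if they carried the symbol of 1 of 38 listed HOX genes or lay in 1 of 4 hg19 intervals around the clusters. The rule found 104 probes of 169544 distinct probes on chromosomes 1 to 22 and X, with 29 in HOXA, 29 in HOXB, 24 in HOXC and 22 in HOXD. Of these, 50 carried a listed symbol, and all 50 lay inside the intervals. They covered 32 of the 38 genes. HOXA4, HOXA10, HOXB1, HOXB5, HOXB6 and HOXD9 had no probe under their own symbol.

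Each array compared newly made DNA from early S phase (Cy3) with newly made DNA from late S phase (Cy5) of the same line, after BrdU labelling (50 µM, 2 h), cell sorting, immunoprecipitation and whole-genome amplification. The lines were K562, a leukaemia line, and U2OS, an osteosarcoma line, both untreated apart from BrdU. K562 gave 1 array labelled as the new sorting method, 1 labelled as the old one and 1 on a smaller 44k design. U2OS gave 2 manual and 2 automated arrays. The labels do not say whether arrays of a line came from separate cultures, so every p-value here measures the spread between these arrays, and K562 against U2OS rests on 2 arrays against 4. Values are log2(early/late) minus the array's median probe. A positive value means earlier than the median probe of that array, and a negative one later.

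The early dye was the same on all arrays, so a dye effect does not cancel within a line, and no slide held both lines. Both manual U2OS arrays were on the same slide and the automated ones on separate slides, so handling cannot be told apart from slide. Signal was uneven: of the 104 HOX probes, 98 and 96 were well above background in both channels on the automated U2OS arrays, but 36 and 21 on the manual ones and 43 and 47 on the K562 new and old arrays. As a check of the lines, the summed signal of CDKN2A, a tumour suppressor gene known to be deleted in K562, was -2.82 and -1.97 on the K562 arrays and between -1.04 and -0.65 on the U2OS arrays (log2, array median 0, 3 probes).

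The probes are short genomic sequences, spaced at a median of 5.4 kb (HOXC) to 8.6 kb (HOXD). Their mean GC content was 36.6% in the HOX intervals and 36.5% over the whole array, and 47 of the 104 hold no CpG. The following probes, from the deposited files, are those of listed HOXA genes that passed the probe-level test between the lines and, for HOXC and HOXD, the listed gene's probe nearest to the mean of its region. Capitals mark CpG dinucleotides, positions are hg19, and the strand of a probe is not given in the sources used here.
HOXA5, chr7:27181255-27181314: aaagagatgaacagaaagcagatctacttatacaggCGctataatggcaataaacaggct
HOXA3, chr7:27152414-27152473: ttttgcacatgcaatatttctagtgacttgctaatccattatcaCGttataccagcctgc
HOXC9, chr12:54396400-54396459: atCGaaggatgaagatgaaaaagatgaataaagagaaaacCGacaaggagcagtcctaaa
HOXD11, chr2:176974234-176974288: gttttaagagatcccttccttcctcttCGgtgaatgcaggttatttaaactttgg

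The clusters also host microRNA genes, which carry no probe of their own name here, so only the region around them was read. Their mature sequences (RefSeq, GRCh38.p14) are shown because near-identical microRNAs sit in HOXA, HOXB and HOXC. In K562 HOXA was late and HOXB and HOXC were early, while in U2OS all of these were early. Capitals mark the seed, bases 2 to 8. By gene order in the RefSeq table, MIR196B lies between HOXA9 and HOXA10, MIR196A1 between HOXB9 and HOXB13, MIR196A2 between HOXC10 and HOXC9, and MIR10A between HOXB4 and HOXB5.
miR-196b-5p (HOXA): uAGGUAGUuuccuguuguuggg
miR-196a-5p (HOXB and HOXC): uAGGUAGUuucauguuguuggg
miR-10a-5p (HOXB): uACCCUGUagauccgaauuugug
The miR-196 sequences share their seed and differ by A12C, counted from the 5′ end of miR-196a-5p. MIR10B of the HOXD cluster is named only.

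HOXA was late in K562 and early in U2OS. Its region mean was -0.96 and -0.62 on the K562 new and old arrays. On the U2OS arrays it was 0.882 and 0.995 (manual) and 1.07 and 0.773 (automated). The lines did not overlap, and every K562 array was on the other side of its median probe from every U2OS array. The difference was -1.72 (SE 0.26; 95% interval -2.31 to -1.12), with an adjusted p of 0.00281 in limma over 24173 windows and regions. Of those, 21.9% were called in either direction, 12.4% with K562 later and 9.51% with K562 earlier. The exact permutation p of 2 arrays against 4 was 0.0667, the smallest that design allows. The difference was -1.08 with normexp background correction (adjusted p = 0.0393), and the call was lost with loess (-0.95, adjusted p = 0.0716) and without dim probes (-1.49, 0.0645); over 15 alternatives the adjusted p ran from 0.00107 to 0.0716.

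HOXB was early in both lines. Its region mean was 1.28 and 0.85 in K562 and 1.38, 1.03, 1.39 and 1.59 in U2OS, with overlapping arrays. The difference was -0.28 (95% interval -0.94 to 0.37, adjusted p = 0.552, limma), and -0.50 to -0.067 with 1 array left out.

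HOXC was early in both lines as well. Its region mean was 1.53 and 0.76 in K562 and 1.35, 1.09, 1.24 and 1.43 in U2OS, so the K562 arrays lay above and below all U2OS arrays. The difference was -0.13 (95% interval -0.83 to 0.56, adjusted p = 0.816, limma).

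HOXD was late in both lines. Its region mean was -0.32 and -0.92 in K562 and -0.58, -0.75, -0.72 and -0.98 in U2OS, and no array of either line lay above 0. The difference was 0.14 (95% interval -0.52 to 0.79, adjusted p = 0.795, limma). The intervals at HOXB, HOXC and HOXD all exclude the -1.12 that bounds the HOXA difference nearest to 0, but they still hold smaller differences in either direction.

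**Figure D1:**
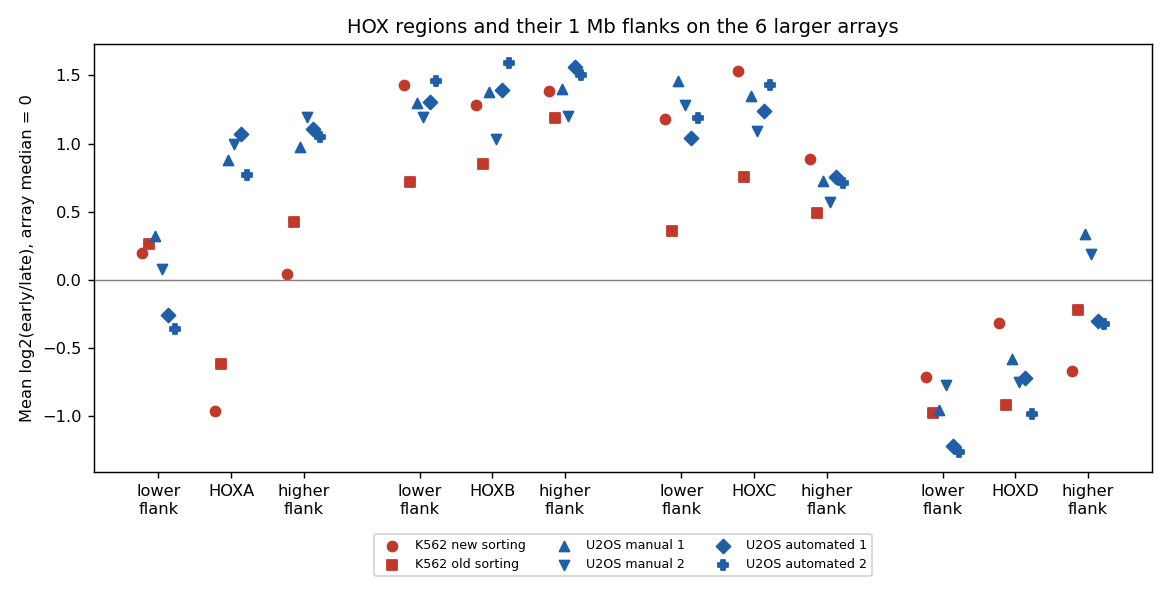
Mean log2(early/late) of each HOX region and of the 1 Mb below and above it, with the array median at 0, one symbol per array (red, 2 K562 arrays; blue, 4 U2OS arrays). At HOXA the K562 arrays lie at -0.96 and -0.62 and the U2OS arrays between 0.77 and 1.07, while at the other 3 clusters the lines overlap.

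Within arrays, the clusters fell into an early and a late pair in K562 and into 3 early clusters and 1 late one in U2OS. HOXB exceeded HOXD by 1.96 on average and HOXC exceeded HOXD by 1.94, each on 6 of 6 arrays (exact sign-flip p = 0.031, the smallest 6 arrays allow; adjusted over 6 pairs 0.0469). HOXA was below HOXB by 0.90 and below HOXC by 0.87 on average, also on 6 of 6 arrays with the same p. With loess these averages were 1.15, 1.11, -0.53 and -0.49. Without dim probes they were 1.91, 1.73, -0.82 and -0.64, and all 4 calls were lost (adjusted p 0.0625 to 0.188, exact sign-flip). An adjusted p of 0.0469 needs 4 pairs at the smallest p together. Without dim probes HOXA minus HOXC left it (adjusted 0.188), so the others, at 0.0625, could not pass. In the main values the HOXA gaps were -2.24 and -1.46 (against HOXB) in K562 but -0.04 to -0.81 in U2OS. HOXA minus HOXD was -0.64 and 0.30 in K562 and 1.46 to 1.79 in U2OS. The change of each HOXA gap between the lines was -1.44 against HOXB, -1.59 against HOXC and -1.86 against HOXD; in each, the exact p was 0.0667, the smallest possible, and 0.133 adjusted over the 6 pairs. HOXB and HOXC differed by 0.02 on average (SD 0.16 over 6 arrays, adjusted p = 0.781, exact sign-flip).

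The third K562 array, on the 44k design, gave region means of -0.54 for HOXA (17 probes), 0.49 for HOXB (15), 0.65 for HOXC (9) and -0.16 for HOXD (11). The HOXA and HOXD means were again below 0 and those of HOXB and HOXC above it. Single genes lay on both sides of 0 in every cluster. They ran from -0.98 to 0.67 in HOXA, -0.46 to 0.77 in HOXB, -0.46 to 2.06 in HOXC and -1.58 to 0.38 in HOXD. Of the log ratios on this array 14.3% were exactly 0, which is -0.46 after centring. HOXA3, HOXB2, HOXB3, HOXB9 and HOXC6 stood at that value. On this array 8.83% of late-channel spots were well above background, so its values are given without a test.

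HOXA genes were lower in K562 at each of the 8 measured members. In limma over 24641 genes, 11.6% of genes were called, 6.64% with K562 later and 5.01% with K562 earlier. Among the 32 measured HOX genes 4 were called (12.5%), all with K562 later, which is near the background in either direction; the count was 1 to 6 over the alternatives. By cluster the calls were 3 of 8 in HOXA, 1 of 7 in HOXB, 0 of 9 in HOXC and 0 of 8 in HOXD. The median difference was -1.19 over the 8 HOXA genes, -0.24 in HOXB, -0.01 in HOXC and -0.22 in HOXD, against -0.12 over all genes. In 7 of the 8 HOXA genes both K562 arrays lay below all U2OS arrays, an order found at 18.7% of all genes; in the other clusters it held for HOXB9 alone.

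HOXA5, a regulator of lung and axial patterning, had the largest difference. Its single probe read -1.59 and -1.04 in K562 and 1.09, 0.89, 0.71 and 0.78 in U2OS. The lines were far apart: the difference was -2.19 (SE 0.32, adjusted p = 0.00492, limma), and it was the latest HOXA member in K562. This probe was well above background on all 6 arrays.

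HOXA9, a factor of blood progenitors often raised in leukaemia, was measured by 4 probes. It read -0.49 and -0.62 in K562 and 0.813, 1.102, 0.867 and 0.805 in U2OS. The difference was -1.45 (SE 0.30, adjusted p = 0.0169, limma), and HOXA9 was the earliest HOXA member in U2OS at a mean of 0.90, level with HOXA11 at 0.89. Its adjusted p was 0.0689 and 0.0736 without the new or old K562 array and 0.0536 without the second automated array, 0.0568 with normexp, 0.165 with loess and 0.443 without dim probes. The HOXA9 probes disagreed, and none was called alone. The one at chr7:27204593, well above background on all 6 arrays, differed by -0.34 (adjusted p = 0.816, limma over probes). Those at chr7:27202082, chr7:27202112 and chr7:27202781 differed by -1.58, -1.83 and -2.06 (0.0757, 0.0545 and 0.062), and the first 2 of these overlap in sequence.

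HOXA2, which patterns the hindbrain and the second pharyngeal arch, read -0.74 and -1.40 in K562. In U2OS the manual arrays read -0.03 and 0.33 and the automated ones 0.65 and 0.45, and it was the latest HOXA member in U2OS. The difference was -1.42 (SE 0.35, adjusted p = 0.036, limma). The call was lost without either K562 array, the second manual array or either automated array (adjusted p 0.0604 to 0.181), and kept without the first manual one (0.0392); it was also lost with loess (0.189), with mean centring (0.0857) and with the 44k array added (0.26).

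The other HOXA genes had values of the same sign that did not pass. HOXA3 differed by -1.18 (adjusted p = 0.056), HOXA13 by -1.15 (0.0598), HOXA11 by -1.21 (0.0909) and HOXA7 by -1.03 (0.102), each without overlap between the lines. The 2 HOXA3 probes disagreed: the one at chr7:27152414 differed by -1.88 (adjusted p = 0.0446, limma over probes). The one at chr7:27162173 differed by -0.48 (0.752). It read 0.75 and 0.10 in K562 and overlapped U2OS, which ran from -0.10 to 2.06. HOXA7 was the earliest HOXA member in K562, at a mean of -0.20 with arrays at 0.22 and -0.63, level with HOXA6 at -0.21. HOXA6 overlapped: its probe read -1.22 on the new and 0.80 on the old K562 array against -0.04 to 1.35 in U2OS. HOXA11 and HOXA13, which act in limb and urogenital development, were at means of 0.89 and 0.71 in U2OS and -0.31 and -0.44 in K562.

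**Figure D2:**
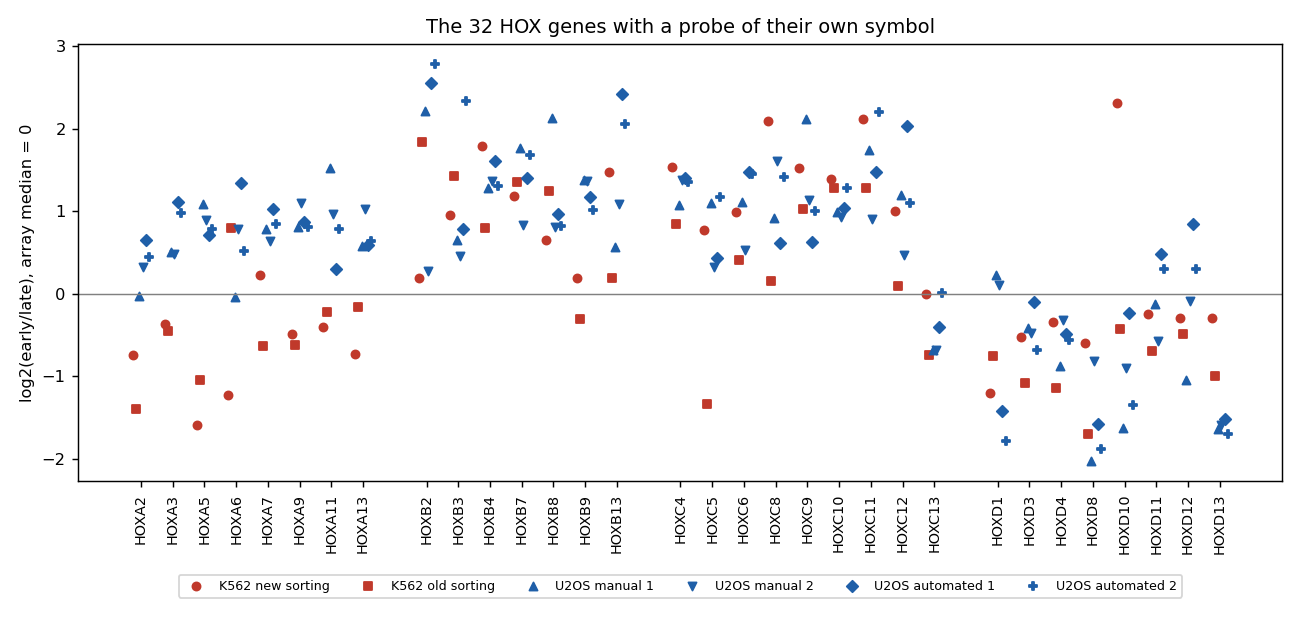
log2(early/late) of the 32 measured HOX genes on each of the 6 larger arrays, ordered by cluster and paralog number (red, K562; blue, U2OS). The K562 symbols lie below the U2OS symbols at 7 of 8 HOXA genes, HOXC13 lies below the other HOXC genes in U2OS, and HOXD10 has 1 high K562 array at 2.31.

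HOXB genes were early in U2OS on every array, all 7 of 7, where 55.4% of all genes were above 0 on every U2OS array; in K562 6 of 7 were (60.5% of all genes). HOXB2, a hindbrain gene, was the earliest in U2OS at a mean of 1.96, though its arrays ran from 0.28 to 2.79. HOXB4, a regulator of blood stem cells, was the earliest in K562 at 1.29 (1.79 and 0.80) and stood at 1.39 in U2OS. HOXB3 was the latest in U2OS at 1.06. HOXB13, the outermost gene and a prostate factor, was at 0.84 in K562 and 1.53 in U2OS (difference -0.70, adjusted p = 0.537, limma).

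HOXB9, which acts in thoracic skeletal patterning, was the exception in K562. It read 0.19 and -0.30 in K562 and 1.38, 1.37, 1.18 and 1.02 in U2OS, a difference of -1.29 (SE 0.32, adjusted p = 0.035, limma). Its 2 probes disagreed in K562: the one at chr17:46699426 read 0.77 and 0.72, and the one at chr17:46703089 read -0.39 and -1.32. The value of -0.39 came from a deposited log ratio of exactly 0, and without such values the adjusted p of HOXB9 was 0.123. It was 0.353 with normexp, 0.329 with loess and 0.0768 centred on the mean. It was 0.00824 with the 44k array added, where the single HOXB9 probe, at -0.46, is again a deposited log ratio of exactly 0. The call was also lost when any 1 of the 6 arrays was left out (adjusted p 0.0602 to 0.161).

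HOXC genes were above 0 on every U2OS array in 8 of 9 cases and on both K562 arrays in 7 of 9. HOXC11 was the earliest in both lines, at 1.70 in K562 (2.12 and 1.28) and 1.58 in U2OS. HOXC10 read 1.39 and 1.29 in K562, above all U2OS arrays (0.93 to 1.28), by 0.28 (adjusted p = 0.635, limma). HOXC13, a hair and nail gene at the edge of the cluster, was the latest in both lines: it read 0.00 and -0.74 in K562 and -0.68, -0.68, -0.40 and 0.01 in U2OS, from a single probe. The next lowest HOXC gene in U2OS, HOXC5, had a mean of 0.76. HOXC5 read 0.77 and -1.33 on the K562 arrays, so its K562 mean of -0.28 rests on a wide spread.

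HOXD genes were below 0 on both K562 arrays in 7 of 8 cases, where 26.4% of all genes were, and on every U2OS array in 5 of 8, where 21.3% were. HOXD13, the distal limb gene, was the latest in U2OS, at -1.64, -1.59, -1.51 and -1.70. In K562 it read -0.29 and -0.99, above all U2OS arrays, by 0.97 (SE 0.32, adjusted p = 0.101, limma). HOXD8 was the latest in K562 at -1.15 and stood at -1.57 in U2OS. HOXD11 and HOXD12, which act in forearm and digit formation, were the earliest in U2OS by mean, at 0.02 and 0.00. The 2 HOXD11 probes had U2OS means of 0.70 and -0.66, and the higher one was well above background in both channels on 0 arrays. The single HOXD12 probe ran from -1.05 to 0.85 in U2OS.

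HOXD10 was the earliest HOXD gene in K562 by mean, 0.95, but its single probe read 2.31 on the new array and -0.42 on the old one. The U2OS arrays ran from -1.63 to -0.24, and the old K562 array lay inside that range (difference 1.97, SE 0.72, adjusted p = 0.129, limma). HOXD1 split by handling within U2OS: the manual arrays read 0.23 and 0.11, the automated ones -1.42 and -1.79, and K562 -1.20 and -0.75.

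Some paralogs of 1 number lay far apart and others close together, given here as values with no test. In U2OS the number 13 genes ran from HOXB13 at 1.53 through HOXA13 at 0.71 and HOXC13 at -0.44 to HOXD13 at -1.61. In K562 the number 9 genes were at -0.56 (HOXA9), -0.06 (HOXB9) and 1.27 (HOXC9). The number 5 genes were at -1.32 (HOXA5) and -0.28 (HOXC5) in K562 and at 0.87 and 0.76 in U2OS. HOXB4 and HOXC4 were at 1.29 and 1.19 in K562 and at 1.39 and 1.30 in U2OS.

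At single probes the HOXA difference spread over the whole interval. All 29 HOXA probes had a K562 mean below the U2OS mean, where 54.2% of all probes did; the counts were 20 of 29 in HOXB, 13 of 24 in HOXC and 10 of 22 in HOXD. In limma over 168795 probes 8.4% were called and 5.12% with K562 later. In HOXA 11 of 29 were called, all with K562 later, and 0 of 29 in HOXB, 0 of 24 in HOXC and 0 of 22 in HOXD. The called probes reached from chr7:27119092 to chr7:27298351, and the smallest adjusted p, 0.00767, was at the latter (difference -2.75, SE 0.46). That probe read -1.31 and -1.33 in K562 and 1.48, 1.51, 1.39 and 1.32 in U2OS. Neighbouring probes lie on the same stretch of replicating DNA and are not independent.

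**Figure D3:**
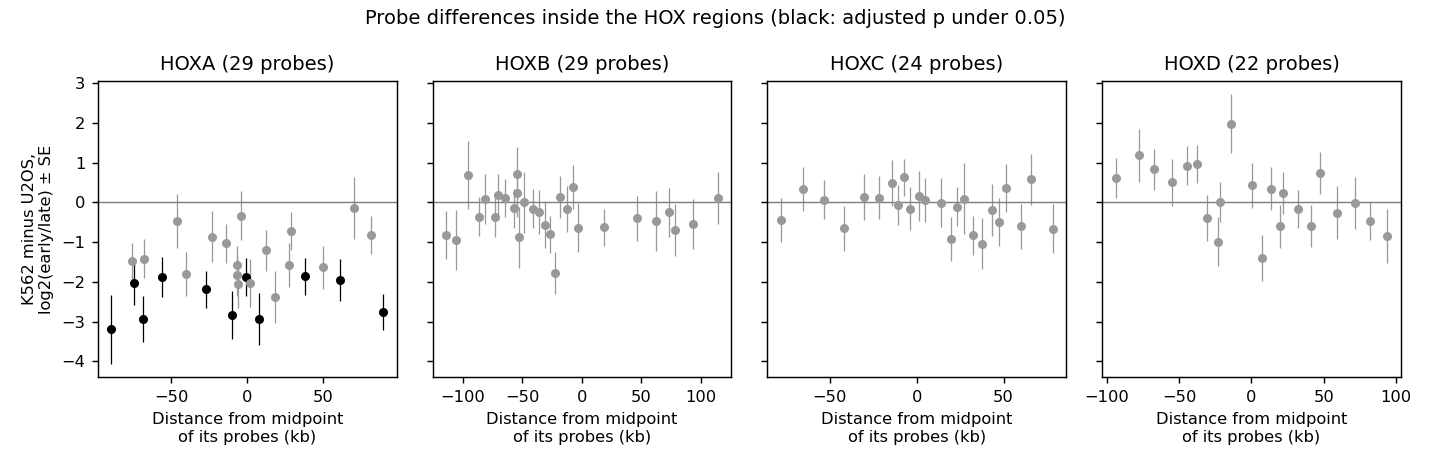
Difference between K562 and U2OS in log2(early/late) at each of the 104 HOX probes, with its standard error, against distance from the midpoint of the probes of that cluster in kb. All 29 HOXA probes lie below 0 and 11 of them are black (adjusted p under 0.05), whereas none of the HOXB, HOXC and HOXD probes is.

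The stretch later in K562 than in U2OS was wider than the HOXA cluster. In 100-kb windows it ran without a break over 5 called windows, chr7:27000001-27500000, with differences between -1.996 and -1.067 (adjusted p 0.00202 to 0.0324, limma). The window just below the HOXA genes, starting at 27000001, read -1.45 and -1.58 in K562 and 0.16 to 0.74 in U2OS. At the upper end, the window starting at 27400001 read 0.01 and 0.22 in K562 and 0.78 to 1.46 in U2OS. The nearest named genes outside were not called: SKAP2, an adaptor protein gene, was late in both lines (-1.04 in K562, -0.46 in U2OS, adjusted p = 0.345), and HIBADH, an enzyme of valine breakdown, was early in both (1.32 and 1.40, adjusted p = 0.917). Other flank genes were: of 20 genes in the HOXA flanks, 3 were called later and 4 earlier in K562. Over all genes these shares were 6.64% and 5.01%.

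Farther out the HOXA flanks differed in both directions. Of the 20 HOXA flank windows 4 were called earlier and 5 later in K562, counting those of the stretch above that lie outside the cluster. Over all windows and regions these shares were 9.51% and 12.4%. The windows starting at 26400001 and 26500001 were earlier in K562, by 1.65 and 1.49 (adjusted p 0.00668 and 0.0125, limma). Those starting at 26100001 and 26300001 were earlier by 1.19 and 1.33 (0.0496 and 0.048). The windows starting at 28100001 and 28200001 were later in K562, by -2.06 and -2.97 (adjusted p 0.00788 and 0.00189). The mean of the whole upper 1 Mb flank was 0.04 and 0.42 in K562 and 0.98 to 1.19 in U2OS (difference -0.85, adjusted p = 0.0484), and that of the lower flank differed by 0.28 (adjusted p = 0.564).

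Relative to both flanks pooled HOXA changed sign between the lines. HOXA minus both flanks was -1.08 and -0.96 in K562 and 0.24, 0.38, 0.67 and 0.45 in U2OS, a change of -1.46 (exact permutation p = 0.0667, the smallest 2 against 4 allow). Against the upper flank alone it did not change sign: HOXA was below that flank on all 6 arrays, by -1.001 and -1.04 in K562 and by -0.28 to -0.04 in U2OS. For the windows of the clusters against the windows within 1 Mb, the change between the lines was tested over 23702 windows with limma, a test added after the values were seen. Both HOXA windows were lower in K562, by -1.61 (SE 0.24, adjusted p = 0.000591) and -1.17 (SE 0.25, adjusted p = 0.00547), a call made at 12.1% of windows. None of the 7 windows of the other clusters was called, the smallest adjusted p being 0.155. Both HOXA calls held without any 1 array.

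In U2OS alone the 2 HOXA windows were above their flanks by 0.36 and 0.40 (adjusted p 0.0353 and 0.0342, limma), where 26.2% of all windows were above and 25.4% below. Without the second manual array or either automated array neither was called, and 1 was without the first manual array.

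**Figure D4:**
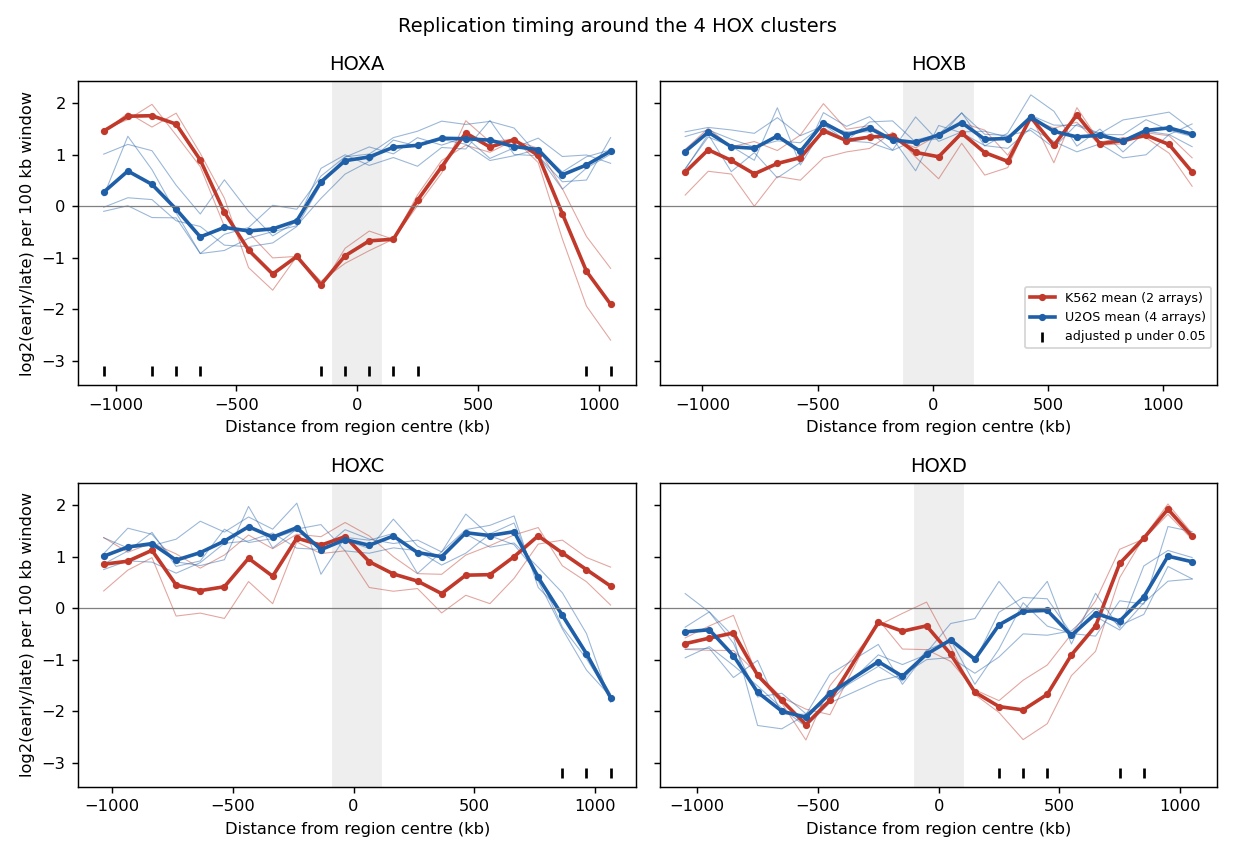
log2(early/late) in 100-kb windows against distance from the region centre in kb, for each cluster (thin lines, single arrays; thick lines, means of 2 K562 and 4 U2OS arrays; grey, windows of the cluster; ticks, adjusted p under 0.05). K562 falls below U2OS across the HOXA windows, the lines run together around HOXB, and at HOXC and HOXD the marked windows lie in the upper flank only.

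HOXB sat inside a uniformly early stretch. None of the 23 windows in and around it was called, where 21.9% of all windows and regions were called in either direction. Its window means ran from 0.63 to 1.78 in K562 and 1.07 to 1.73 in U2OS, and HOXB minus both flanks was between -0.17 and 0.11 on the 6 arrays. The adjoining genes AK057253 and CALCOCO2, an autophagy receptor gene, were early as well, at 1.43 and 1.41 in K562 and 1.293 and 1.502 in U2OS.

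HOXC was earlier than its pooled flanks on 6 of 6 arrays, by 0.34 on average with a range of 0.16 to 0.50 (exact sign-flip p = 0.031, adjusted over the 4 clusters 0.125). A cluster could not pass on its own here, since 6 arrays allow no smaller p. The upper flank gave 0.54 on average, on 6 of 6 arrays, and the lower flank 0.15, on 4 of 6, with the manual U2OS arrays at -0.11 and -0.20. With 500-kb flanks the value was 0.14 (adjusted p = 0.542). Of the 20 HOXC flank windows 3 were called, all earlier in K562, where 9.51% of all windows and regions were. They lay in the upper flank: those starting at 55200001, 55300001 and 55400001 were earlier in K562 by 1.21, 1.63 and 2.17 (adjusted p 0.0272, 0.00676 and 0.00181, limma). There U2OS fell to between -1.83 and -1.67 in the last window, while K562 stayed at 0.06 and 0.80. CALCOCO1 and SMUG1, a DNA repair gene, next to the cluster, were early in both lines and not called.

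HOXD lay above a late trough in the lower flank of both lines, whose lowest window was at -2.26 in K562 and -2.12 in U2OS. Across the 2 windows of the cluster the mean went from -0.34 to -0.89 in K562 and from -0.89 to -0.62 in U2OS. HOXD exceeded its lower flank on 6 of 6 arrays, by 0.27 on average (exact sign-flip p = 0.031, adjusted 0.125, where again a cluster could not pass on its own). It was below its upper flank on 5 of 6 arrays, by -0.54 on average (adjusted p = 0.0833), and -0.18 from both flanks together (adjusted p = 0.417). Of the 19 HOXD flank windows 3 were called later and 2 earlier in K562. Over all windows and regions these shares were 12.4% and 9.51%. Beyond the cluster, the windows starting at 177200001, 177300001 and 177400001 were later in K562 by -1.59, -1.91 and -1.63 (adjusted p 0.0342, 0.00944 and 0.0288, limma). Those starting at 177700001 and 177800001 were earlier by 1.12 and 1.14 (0.0317 and 0.0388). MTX2, a mitochondrial import gene on that side, was at -1.72 in K562 and -0.91 in U2OS (adjusted p = 0.272), and KIAA1715 on the other side at -0.44 and -1.43 (adjusted p = 0.0897).

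Summed signal moved with the HOXA result in part: it was -0.84 and 0.03 on the K562 arrays, -0.24 and -0.15 on the manual U2OS arrays, and 0.63 and 0.59 on the automated ones (log2, array median 0). Its part in the timing difference was not tested. In the same order, the HOXA timing values were -0.96 and -0.62 (K562), 0.882 and 0.995 (manual U2OS) and 1.07 and 0.773 (automated U2OS).

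Automated minus manual handling within U2OS ranged from -1.77 (HOXD1) to 1.42 (HOXB2) over the HOX genes. Between automated and manual arrays limma called 0 of 32 HOX genes and 0 of 24641 genes (0% of all genes), with 3 and 4752 at an unadjusted p under 0.05, and normexp-corrected values called 10 and 8681. The 2 K562 sorting methods, with 1 array each and no test, differed by a median of 0.53 over the HOX genes, new above old at 23 of 32, and by 0.12 over all genes. In HOXC all 9 genes were higher on the new array; in HOXA 4 of 8 were.

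Genes that work with the HOX proteins or resemble them were read from lists of the pathway; of all genes 11.6% were called, 6.64% later and 5.01% earlier in K562. Of the TALE cofactors, which bind DNA together with HOX proteins, 1 of 9 was called: MEIS2 was earlier in K562 by 1.38 (adjusted p = 0.0424, limma), at -0.75 against -2.14. Of 17 measured Polycomb and trithorax genes, which repress or maintain HOX expression, 3 were earlier in K562 and 0 later. JARID2, a Polycomb cofactor, read 1.26 and 1.29 in K562 and -1.54 to -0.92 in U2OS, a difference of 2.51 (adjusted p = 0.00357). PHC1 was earlier by 2.76 (adjusted p = 0.0241) and RNF2, the ubiquitin ligase of Polycomb complex 1, by 1.86 (0.0208). PHC1, with 2 probes, split by U2OS handling: the manual arrays read -0.17 and 0.16 and the automated ones -1.57 and -1.86. The medians of these 2 lists were -0.09 and 0.25.

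In the other lists, to be read against the 6.64% of all genes later in K562, few genes were called. Of the ParaHox and CDX genes, the sister family of HOX, 1 of 5 was called: GSX2 was later in K562 by -2.05 (adjusted p = 0.0186, limma). Of 22 measured dispersed homeobox genes 2 were later in K562, MSX2 by -2.40 (0.0392) and BARX2 by -2.12 (0.045), and 0 earlier. Both split by U2OS handling: the manual arrays read -0.26 and -0.21 at MSX2 and the automated ones 1.73 and 1.30, and at BARX2 they read -0.63 and 0.29 against 1.26 and 1.05. The medians were 0.16 and -0.10. None of the 2 even-skipped genes listed beside the clusters was measured under its own name. Of 10 RNA genes of the clusters only HOTAIR, in HOXC, was measured under its own name; it was early in both lines, at 1.58 in K562 and 1.45 in U2OS (adjusted p = 0.909).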

How the data were processed

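Replication timing was read from 7 two-colour Agilent arrays (6 of a 180k and 1 of a 44k design). Per the file headers, the authors scanned them with Agilent Feature Extraction 11.5.1.1, on hg19; the submitters' processing notes name version 9.1. The deposited log10 ratio (late over early) was computed there from background-subtracted, dye-normalized intensities. It was turned into log2(early/late) and centred on the array median, with control and outlier spots left out and probes averaged; deposited raw intensities served the alternatives. Genes, 100-kb windows (at least 3 probes) and probes were fitted with limma 3.58.1 in R 4.3.3 and Benjamini-Hochberg adjustment at 0.05; regions within arrays used two-sided exact sign-flip or permutation tests. The members and lists were chosen with earlier results of these data known. Genes described were all HOX genes, in full where called or the earliest or latest of a cluster in a line, the nearest named gene on each side, and up to 5 called genes a list. Alternatives were background correction, loess, scale, centring, dim probes, window and flank size, handling and left-out arrays; a slide block was planned but not run. Simulated data held 200 shifted genes among 24641. There the K562 and U2OS gene fit recovered 0% at a shift of 1, 51.5% at 2 and 95.5% at 3. In the measured data 2870 genes were called, among them HOXB9 at -1.29, HOXA2 at -1.42 and HOXA9 at -1.45. Recovery with that many changed genes was not tested. Same-numbered U2OS arrays did not deviate together (correlation 0.0164), so they were not paired. The number of arrays limits the precision. A HOXB probe sequence is not reported here.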

Additional observations from a re-analysis of the deposited data

Results flagged for a closer look

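Among the 4 U2OS arrays, 36 HOX values (32 genes and 4 regions) were examined for a lone distant array, and 3 passed the 95% critical value of Dixon's ratio for 4 samples, 0.829; chance passes about 1 in 20. HOXA13 had a ratio of 0.872, with the second manual array at 1.03 above the others (0.58 to 0.64). HOXB8 had a ratio of 0.884, with the first manual array at 2.14 above the others (0.81 to 0.97). HOXC4 had a ratio of 0.857, with the first manual array at 1.07 below the others (1.36 to 1.40).

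HOXA stood on opposite sides of its lower flank, and of both flanks pooled, in the lines. Against both flanks the change between K562 and U2OS was -1.46, and against the lower flank alone it was -2.002, with K562 at -1.16 and -0.88 and U2OS at 0.56 to 1.33. Against the upper flank HOXA was below on all 6 arrays, with means of -1.02 in K562 and -0.15 in U2OS. The exact permutation p was 0.0667 for each of these changes, the smallest that 2 arrays against 4 allow.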

How the results depend on the processing

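The HOXA region was later in K562 under all 15 alternatives (-1.89 to -0.95) and past the threshold under 13; it was -0.95 (adjusted p = 0.0716) with loess and -1.49 (0.0645, fewer windows) without dim probes, and -1.89 to -1.55 with 1 array left out. The HOXB difference was -0.50 to -0.067 with 1 array left out. For HOXC the difference was 0.028 without dim probes and -0.52 to 0.26 with 1 array left out (0.26 without the old K562 array); for HOXD it was -0.16 to 0.44 (-0.16 without the new K562 array). HOXA minus both flanks was 0.13 with 500-kb flanks, 0.44 in U2OS alone, 0.16 and 0.13 without the new or old K562 array, and -0.19 to 0.16 over the left-out arrays. HOXB minus flanks was 0.10 without dim probes and 0.026 with medians, HOXC minus flanks 0.14 with 500-kb flanks, 0.19 with normexp and 0.20 with loess, and HOXD minus flanks 0.27 with 500-kb flanks. HOXA minus HOXB, HOXA minus HOXC, HOXB minus HOXD and HOXC minus HOXD were -0.82, -0.64, 1.91 and 1.73 without dim probes. All 4 calls were lost there (adjusted p 0.0625, 0.188, 0.0625 and 0.0625, exact sign-flip), since a call needs 4 pairs at the smallest p together. The 4 differences were -0.57, -0.52, 1.23 and 1.18 with normexp and -0.53, -0.49, 1.15 and 1.11 with loess (all still called). In U2OS alone, whose 4 arrays cannot pass, they were -0.42, -0.35, 2.10 and 2.03. With 1 array left out, which cannot pass either, they were -1.07 to -0.63, -1.03 to -0.55, 1.84 to 2.04 and 1.848 to 1.995. HOXB minus HOXC was -0.0058 to 0.076 there (-0.0051 and -0.0058 without the first or second automated array).

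The 4 called HOX genes became 2 with normexp, 1 with loess, 1 of 11 without dim probes, 2 centred on the mean, 1 of 4 with at least 3 probes, and 1 to 3 with 1 array left out. The 3 called HOXA genes became 1 with loess, 1 without dim probes, 1 with at least 3 probes, 5 with handling as separate groups, and 1 to 3 with 1 array left out. HOXA5 was called under all 14 alternatives it had. Over all genes, 2870 calls became 1507 with normexp, 1197 with loess, 650 of 10283 without dim probes, and 1071 (without the new K562 array) to 2685 with 1 array left out. The 2 U2OS windows above their flanks became 1 with 500-kb flanks, 0 with normexp, 0 with loess and 0 to 1 with 1 array left out. Both HOXA windows kept their call between the lines under all settings that left any HOX window; among the other clusters 1 was called without the old K562 array (0 to 1 over the left-out arrays). The cause of these changes was not tested.

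The U2OS handling comparison called 0 genes; normexp gave 8681 genes and 10 HOX genes, loess 8386 and 11, and no dim probes 1939 and 1. With the replicate block, 0 genes were called, also with scaled arrays, and 0 with 1 array left out. Slide as a random block was not run, since limma gave no slide correlation with only 1 slide holding 2 arrays. Signal over background limits the K562 and manual arrays most: 18, 11, 12 and 5 of the 29 HOXA probes were well above it in both channels there, against 27 and 29 on the automated arrays.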
